A study of Mus musculus with 12 samples.

Results

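The proteasome genes of murine Lin-Sca+Kit+ cells were compared with and without BCR::ABL1, the fusion kinase of chronic myeloid leukaemia (CML). The members were the protein-coding mouse genes whose symbol starts with Psma, Psmb, Psmc, Psmd, Psme, Psmf or Psmg followed by a number, which gave 50 of the 56748 genes in the count files (21922 of them protein-coding). A further 4 rows with such symbols were pseudogenes, with at most 3 counts in any library. Psmc3ip met the rule by its name alone, since it encodes a partner of the meiotic recombinases, and the other 49 encode subunits, activators, an inhibitor or assembly factors of the proteasome.

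All cells were CD45.2+ donor cells from bone marrow (BM) of SCLtTA/BCR-ABL (DTG) double transgenic mice, so the cells of both groups carried the transgenes, and they were sorted from irradiated B6.SJL (CD45.1) recipients labelled 8 to 12 weeks of age. In this model the Scl enhancer drives the transactivator in haemopoietic stem and progenitor cells, and tetracycline (TET) in the drinking water keeps the human BCR::ABL1 transgene off. The 6 CTRL libraries came from recipients kept on TET (BCR::ABL1−), which are labelled male. The 6 CML 2wk libraries came from recipients in which TET had been withdrawn for 2 weeks (BCR::ABL1+), which are labelled female. The sex of the host, TET itself and BCR::ABL1 therefore cannot be told apart here. The donor BM was a pool of mice of both sexes, and the labels do not say which donors or recipients stand behind a library, so each p-value measures the spread between libraries.

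The 26S proteasome degrades proteins that carry ubiquitin chains. Its 20S core is a barrel of α rings, which gate the entrance, around β rings, in which Psmb5, Psmb6 and Psmb7 encode the subunits with chymotrypsin-like, caspase-like and trypsin-like activity. The 19S cap binds and unfolds substrates with a ring of ATPases in its base, and its lid removes the ubiquitin chain. In cells exposed to interferon, and constitutively in many haemopoietic cells, Psmb8, Psmb9 and Psmb10 take the places of Psmb5, Psmb6 and Psmb7 in newly built cores, and the resulting immunoproteasome yields peptides that suit MHC class I molecules. Primitive haemopoietic cells are known for a low rate of protein synthesis and a strong dependence on protein quality control.

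Transcription of constitutive proteasome genes is known to be raised by NRF1 (Nfe2l1), which binds antioxidant response elements, while interferon acts through STAT and IRF factors. The RefSeq promoter windows (GRCm38.p6, from 250 bases before to 50 bases after the annotated start, 5′ to 3′ on the gene's strand) are therefore shown for the catalytic genes on which the comparison of the 2 core types turns. Psmb7 had no entry. Capitals mark matches on either strand to TGACNNNGC (antioxidant response element core), TTCNNNGAA (gamma-activated site core) or GAAANNGAA (a core bound by interferon regulatory factors), 3 patterns that did not overlap each other in these windows.
Psmb5 (chr14:54617946-54618245, minus strand): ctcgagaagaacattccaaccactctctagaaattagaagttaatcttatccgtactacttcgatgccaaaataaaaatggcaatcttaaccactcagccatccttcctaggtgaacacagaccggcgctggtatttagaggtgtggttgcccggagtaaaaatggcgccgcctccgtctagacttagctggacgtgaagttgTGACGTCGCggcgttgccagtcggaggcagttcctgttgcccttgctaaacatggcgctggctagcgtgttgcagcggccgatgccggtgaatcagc
Psmb6 (chr11:70525107-70525406, plus strand): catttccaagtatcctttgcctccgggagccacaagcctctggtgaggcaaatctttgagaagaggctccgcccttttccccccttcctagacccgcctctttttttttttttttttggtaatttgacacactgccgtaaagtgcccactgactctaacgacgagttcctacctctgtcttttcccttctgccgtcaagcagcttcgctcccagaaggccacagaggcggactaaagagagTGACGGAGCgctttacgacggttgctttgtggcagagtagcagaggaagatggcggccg
Psmb8 (chr17:34197945-34198244, plus strand): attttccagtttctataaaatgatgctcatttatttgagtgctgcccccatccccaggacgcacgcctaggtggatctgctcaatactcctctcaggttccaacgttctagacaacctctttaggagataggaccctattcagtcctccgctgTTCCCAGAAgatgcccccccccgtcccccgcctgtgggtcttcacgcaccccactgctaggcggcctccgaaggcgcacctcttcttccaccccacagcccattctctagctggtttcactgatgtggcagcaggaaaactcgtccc
Psmb9 (chr17:34187281-34187580, minus strand): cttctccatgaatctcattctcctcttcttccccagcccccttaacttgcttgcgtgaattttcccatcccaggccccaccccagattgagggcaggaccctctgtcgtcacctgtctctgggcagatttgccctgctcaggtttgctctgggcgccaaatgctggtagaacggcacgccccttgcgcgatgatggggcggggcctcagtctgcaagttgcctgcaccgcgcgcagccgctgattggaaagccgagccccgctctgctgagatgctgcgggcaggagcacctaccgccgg
Psmb10 (chr8:105938343-105938642, minus strand): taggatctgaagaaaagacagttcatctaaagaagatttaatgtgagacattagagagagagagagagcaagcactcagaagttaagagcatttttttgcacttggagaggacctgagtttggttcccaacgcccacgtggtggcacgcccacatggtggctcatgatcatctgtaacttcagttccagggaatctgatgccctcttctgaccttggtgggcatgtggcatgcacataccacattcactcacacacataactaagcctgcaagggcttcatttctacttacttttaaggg

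Psmb5 held TGACNNNGC from position −47 and Psmb6 from position −9, counted from the first base of the gene, whereas the windows of Psmb8, Psmb9 and Psmb10 held no such match. Over all 42 members with a window, 6 held TGACNNNGC (14.3%), namely Psmb5, Psmb6, Psmc6, Psmd9, Psmd12 and Psme4, and 14.0% of the 27025 genes with a window did. TTCNNNGAA was found in 3 members (7.14%; Psmb8 from position −97, Psmd2 and Psmg1) against 9.55% of all genes, and GAAANNGAA in 7 (16.7%; Psmb3, Psmb4, Psmc2, Psmd4, Psmd9, Psme1 and Psmg4) against 9.76%. A longer form, the interferon-stimulated response element (the same letters with a further A at the 3′ end), was searched first. It was found in 5 of these 7 members (11.9% of the 42; not in Psmb4 or Psmc2) against 3.99% of all genes, and the shorter form was chosen after these matches had been seen. CCAAT, the box bound by NF-Y, was present in 15 members (35.7%), Psmb9 among them, against 41.1% of all genes. The window of Psmb9 (chr17:34187281-34187580) lies on the minus strand across that of Tap1 (chr17:34187306-34187605, plus strand), which encodes a subunit of the peptide transporter, so that these divergent genes share most of these bases.

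The number of counts assigned to genes lay between 22804754 and 41832868 for BCR::ABL1− and between 16150817 and 25070105 for BCR::ABL1+, and levels below are counts per 1000000 (CPM), scaled with TMM factors. The markers of the sorted fraction were present, with Kit at a median of 745 CPM (681 to 800.0) in BCR::ABL1− and 418 CPM (323 to 522) in BCR::ABL1+, and Ly6a, which encodes Sca-1, at a median of 35.7 CPM (27.2 to 38.3) and 39.9 CPM (31.4 to 74.1). Summed over 8 genes (Kit, Ly6a, Ptprc, Cd34, Flt3, Slamf1, Mecom and Hlf), the level was 2736 to 3110 CPM against 1723 to 2221 CPM. Of these genes 6 were lower and 1 higher in BCR::ABL1+. Only Kit, Ly6a and Ptprc, which encodes CD45, stand for markers of the sort. Genes of mast cells and basophils (7 of 10 higher and 1 lower; 317 to 431 against 505 to 2651 CPM) had larger sums in BCR::ABL1+, and erythroid genes (8 of 10 lower; 96.1 to 216 against 24.9 to 66.8 CPM) smaller ones, both without overlap. The sums of the remaining lists overlapped between groups, with 4 of 10 neutrophil genes higher and 4 lower (2332 to 4688 against 3118 to 8542 CPM), 3 of 10 monocyte genes higher and 1 lower (291 to 551 against 474 to 856 CPM), 4 of 10 B cell genes lower (336 to 704 against 68.6 to 481 CPM) and, of 10 T and NK cell genes, 2 higher and 3 lower (93.8 to 121 against 96.9 to 209 CPM), and no marker of any list was at 0 in all libraries. Over all tested genes 30.6% were higher and 29.0% lower in BCR::ABL1+. Counts of markers near these shares do not set a list apart. The sum of 12 stromal genes (3 higher) was 966 CPM in BCR::ABL1+ replicate 2 and 453 CPM in replicate 4, against 176 to 251 CPM in the other libraries. The mitochondrial share of counts was 0.816 to 1.29% in BCR::ABL1− and 2.26 to 2.97% in BCR::ABL1+. The part of these shifts in the proteasome values was not tested, and in bulk RNA fewer cells of a type and less RNA per cell cannot be told apart.

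Most proteasome genes were higher in BCR::ABL1+ cells. The 50 members together took 0.407 to 0.464% of all counts in the BCR::ABL1− libraries and 0.636 to 0.810% in the BCR::ABL1+ libraries, with no overlap. Of the 49 members with enough counts to be tested, 37 rose and 4 fell (edgeR quasi-likelihood test, Benjamini-Hochberg adjusted p under 0.05 over 18438 genes), where 30.6% of all tested genes rose and 29.0% fell. Without BCR::ABL1+ replicates 2 and 4, the libraries with the most stromal RNA, 37 rose and 4 fell, and without the sixth library of both groups 35 rose and 5 fell. The median log2 fold change was 0.75 over the members and 0.07 over all tested genes. For 34 members every BCR::ABL1+ library lay above every BCR::ABL1− library, which held for 17.0% of all tested genes, and for 1 member, Psmd11, every library lay below (20.6% of all tested genes). The remaining member, Psmb11, which encodes the catalytic subunit of thymus cortex, had between 0 and 5 counts in any library, too few to be tested.

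**Figure D1:**
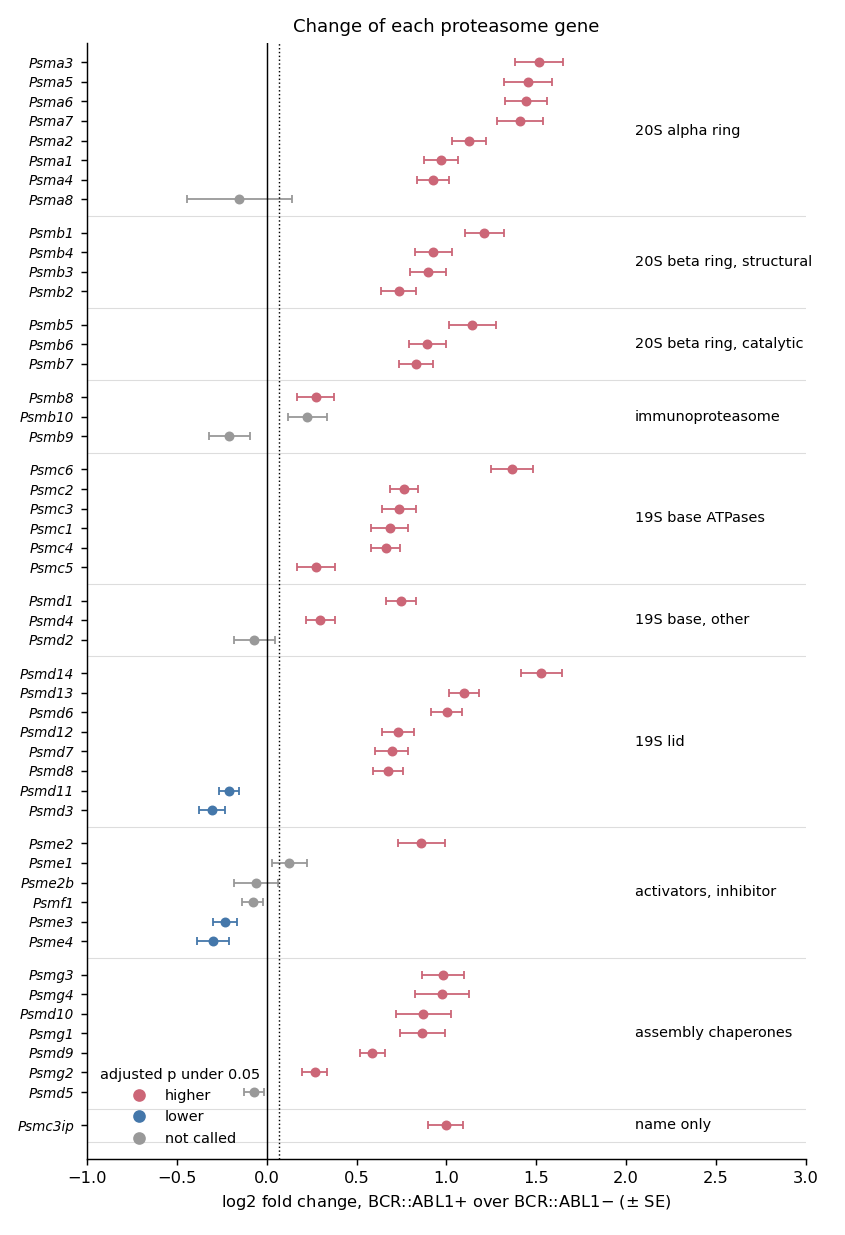
Log2 fold change (BCR::ABL1+ over BCR::ABL1−, x axis) of the 49 tested members with its SE as bar, grouped by role, coloured by the edgeR call, with the median of all tested genes (0.07) as dotted line. The rings and the ATPases lie right of 0 except Psma8, whereas Psmb8, Psmb9 and Psmb10 lie between −0.21 and 0.27.

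In the α ring 7 of 8 genes rose, with a median log2 fold change of 1.27 over the 8. Psma3, at a median of 112 CPM (97.9 to 117) in BCR::ABL1− and 294 CPM (232 to 424) in BCR::ABL1+, had a log2 fold change of 1.52 ± 0.13 (SE; edgeR adjusted p = 3.28e-07). Psma5 went from a median of 79.5 CPM (67.5 to 83.9) to 203 CPM (157 to 289), with a log2 fold change of 1.45 ± 0.13 (SE; edgeR adjusted p = 5.32e-07). The highest BCR::ABL1− library was below the lowest BCR::ABL1+ library for both genes. Psma6 (1.44), Psma7 (1.41), Psma2 (1.12), Psma1 (0.97) and Psma4 (0.93) rose too, again without overlap. The eighth gene, Psma8, is the spermatocyte form of the α4 subunit that Psma7 encodes elsewhere. It was at a median of 6.94 CPM (3.58 to 10.6) and 6.59 CPM (2.87 to 10.3), and its difference did not pass the test (log2 fold change −0.15, SE 0.29, edgeR adjusted p = 0.674). Per kilobase of transcript, Psma7 was at 146 CPM in BCR::ABL1− and 389 CPM in BCR::ABL1+, the latter the highest mean among all members, and Psma8 was at 4.19 and 3.78 CPM.

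The 4 structural genes of the β ring all rose, with a median log2 fold change of 0.91. Psmb1 was at a median of 127 CPM (117 to 144) in BCR::ABL1− and at 268 CPM (248 to 383) in BCR::ABL1+ (log2 fold change 1.21, SE 0.11, edgeR adjusted p = 4.14e-07). Psmb4 was at a median of 107 CPM (96.1 to 119.6) and 193 CPM (166 to 264), respectively (log2 fold change 0.93, SE 0.10, edgeR adjusted p = 2.86e-06). Psmb3 (0.90) and Psmb2 (0.73) were the smaller changes of this group, and the groups did not overlap for any of its members.

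The constitutive catalytic genes also rose, 3 of 3. Psmb5, the chymotrypsin-like subunit and the main target of bortezomib, was at a median of 37.9 CPM (32.00 to 42.3) in BCR::ABL1− and 77.2 CPM (63.5 to 113) in BCR::ABL1+, with a log2 fold change of 1.14 ± 0.13 (SE; edgeR adjusted p = 3.37e-06). Psmb6 had a median of 79.6 CPM (70.2 to 85.9) and 146 CPM (115 to 189.5), with a log2 fold change of 0.89 ± 0.10 (SE; edgeR adjusted p = 4.22e-06). Psmb7 had a median of 55.3 CPM (44.9 to 59.3) and 96.6 CPM (77.7 to 114), with a log2 fold change of 0.83 ± 0.09 (SE; edgeR adjusted p = 3.21e-06). All 6 BCR::ABL1+ libraries exceeded all BCR::ABL1− libraries for each of these genes, with replicate 6 the highest of its group each time.

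Of their 3 immunoproteasome counterparts, 1 passed the test, and all had smaller differences than the constitutive genes. Psmb8 was at a median of 193 CPM (169.7 to 229.7) in BCR::ABL1− and 230.3 CPM (191 to 303) in BCR::ABL1+, so that the groups overlapped, with a log2 fold change of 0.27 ± 0.10 (SE; edgeR adjusted p = 0.0310). This call was lost in 7 of the 12 fits that left out 1 library, with log2 fold changes of 0.18 (without BCR::ABL1+ replicate 6) to 0.32 over these fits, and its adjusted p was 0.00478 to 0.153 over all alternatives, DESeq2 and limma voom among them. Psmb9 was at a median of 105 CPM (96.7 to 118) and 86.5 CPM (74.6 to 129), and its log2 fold change of −0.21 ± 0.11 (SE; edgeR adjusted p = 0.130) did not pass the test. One library decides that call. BCR::ABL1+ replicate 6 had the highest Psmb9 level of all 12 libraries, and without it the log2 fold change was −0.34 (edgeR adjusted p = 0.00130). Over all alternatives of any tool the adjusted p of Psmb9 was 0.00130 to 0.304. Psmb10 was at a median of 65.99 CPM (59.8 to 75.99) and 75.96 CPM (58.5 to 104), with a log2 fold change of 0.23 ± 0.11 (SE; edgeR adjusted p = 0.0860). It was 0.29 without BCR::ABL1+ replicate 2, which passed the test (edgeR adjusted p = 0.0123), and 0.12 without BCR::ABL1+ replicate 6 (edgeR adjusted p = 0.248). Over all alternatives of any tool the adjusted p of Psmb10 was 0.00902 to 0.298. BCR::ABL1+ replicate 6 also had the largest sums of monocyte, neutrophil, B cell and T and NK cell genes in its group, and their part in these levels was not tested. In none of these 3 genes did the groups separate.

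**Figure D2:**
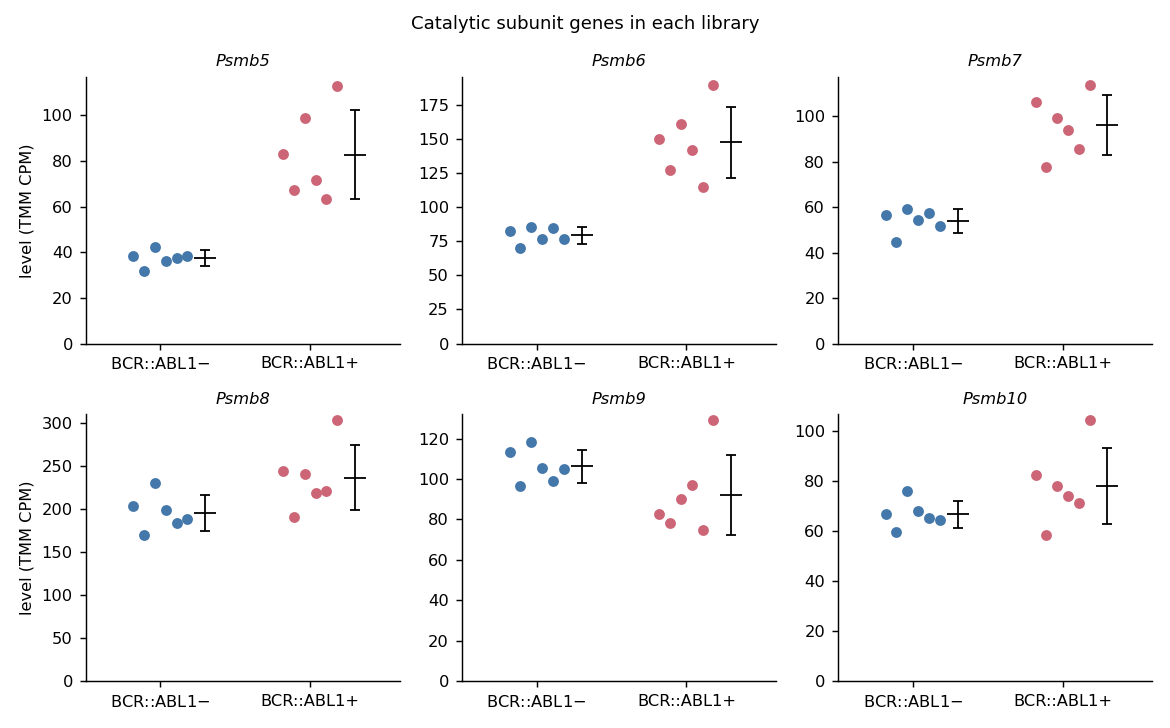
Level (CPM with TMM factors, y axis from 0) of the constitutive catalytic genes (top row) and their immunoproteasome counterparts (bottom row) in the 6 libraries of each group, in order of replicate number, with mean and SD in black. The groups are apart in the top row and overlap in the bottom row, where BCR::ABL1+ replicate 6 is the highest point of each gene.

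The messages for both core types were compared within each library. The measure was the log2 ratio of counts of an immunoproteasome gene to the gene whose place it takes, which does not depend on scaling. Such ratios of messages do not measure the cores that were built. The ratio of Psmb8 to Psmb5 was 4.87 to 5.48 (median 5.30) in BCR::ABL1− and 2.43 to 3.47 (median 2.88) in BCR::ABL1+, a difference of −0.85 on the log2 scale. That of Psmb9 to Psmb6 was 1.16 to 1.38 (median 1.37) and 0.551 to 0.683 (median 0.631), a difference of −1.11. That of Psmb10 to Psmb7 was 1.13 to 1.33 (median 1.25) and 0.753 to 0.917 (median 0.786), a difference of −0.62. All 3 ratios were lower in 6 of 6 BCR::ABL1+ libraries than in any BCR::ABL1− library. Each gave p = 0.00216 in a two-sided exact permutation test over libraries, the smallest p that 6 against 6 allows, and 0.00216 after Benjamini-Hochberg adjustment over the 3 ratios. Psmb9 thus had more counts than Psmb6 in every BCR::ABL1− library and fewer in every BCR::ABL1+ library, and so did Psmb10 against Psmb7. Per kilobase of transcript, Psmb8 stood 2.88 times above Psmb5 in BCR::ABL1− and 1.59 times in BCR::ABL1+ (ratio of geometric means). On the same scale Psmb9 was below Psmb6 in both groups, at ratios of 0.79 and 0.37, so this pair crossed in counts only. The ratio of Psmb10 to Psmb7 was 1.09 and 0.71. After removal of each library's trend with transcript length and GC content, chosen after seeing the data, the differences were −0.72, −1.01 and −0.28, the last with adjusted p = 0.00649 by the exact permutation test and with overlapping groups.

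**Figure D3:**
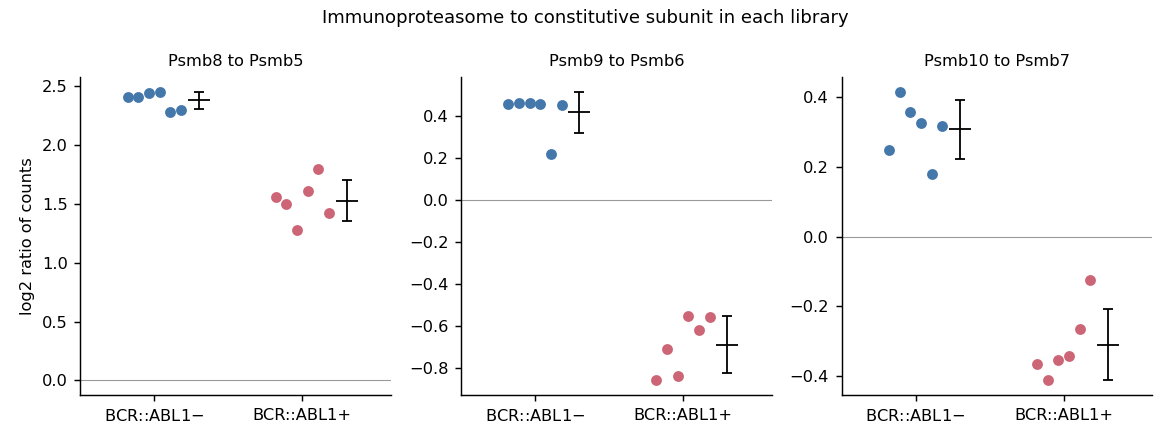
Log2 ratio of counts (y axis, a different range in each panel) of Psmb8 to Psmb5, Psmb9 to Psmb6 and Psmb10 to Psmb7 in the 6 libraries of each group, with mean and SD in black and a line at equal counts. Every BCR::ABL1+ library lies below every BCR::ABL1− library in each panel, and the last 2 ratios cross the line. Per kilobase of transcript, Psmb9 was below Psmb6 in both groups (ratios of 0.79 and 0.37).

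Reads may be shared between some of these genes and their neighbours, since the use of strand in counting is not given. In the reference annotation, exons of other genes cover 14.7% of the exonic bases of Psmb8, 5.79% of Psmb9 (Tap1, on the other strand), 11.8% of Psmb7 (Nek6, on the other strand) and 12.1% of Psmb5. Tap1 itself fell, from a median of 302 CPM (269 to 325) to 146 CPM (118 to 196).

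Sums over each part of the complex show the amounts of message involved. The 15 core genes other than Psmb8, Psmb9, Psmb10 and Psmb11 are the constitutive 20S genes and the spermatocyte form Psma8. They summed to 1348 ± 107 CPM (SD, n = 6; 1188 to 1479.5) in BCR::ABL1− and 2998 ± 542 CPM (SD, n = 6; 2421 to 3801) in BCR::ABL1+, 2.22 times as much. The 17 genes of the 19S cap summed to 1817 ± 128 CPM (SD, n = 6; 1610.4 to 1925) and 2859.8 ± 306 CPM (SD, n = 6; 2392 to 3221), a ratio of 1.57. Psmb5, Psmb6 and Psmb7 together went from 171 ± 14.2 CPM (SD, n = 6; 147 to 188) to 326 ± 57.3 CPM (SD, n = 6; 264 to 416). Psmb8, Psmb9 and Psmb10 together had 368 ± 33.8 CPM (SD, n = 6; 326 to 424) and 406 ± 70.8 CPM (SD, n = 6; 327 to 536), which overlap.

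**Figure D4:**
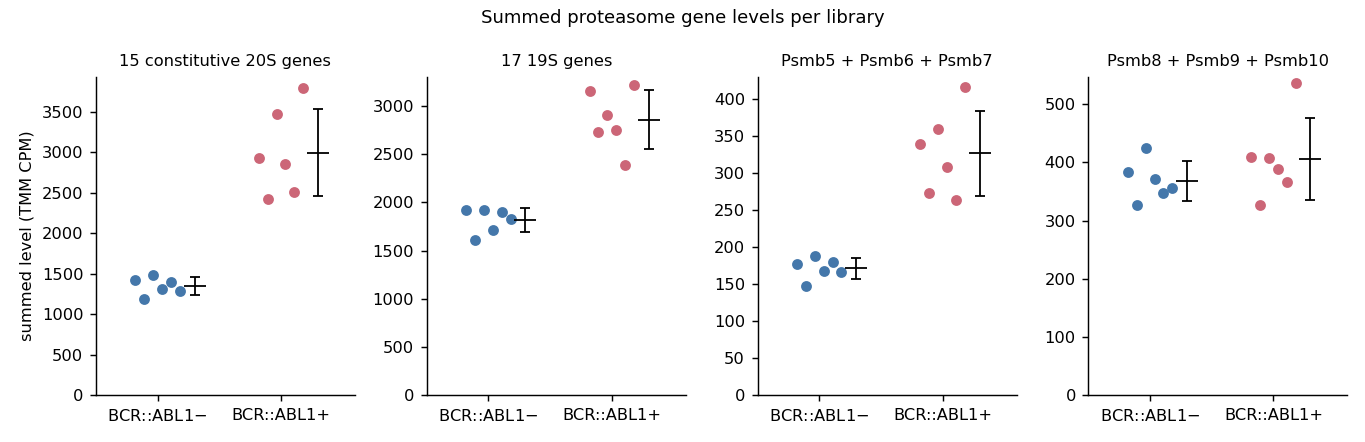
Summed level (CPM with TMM factors, y axis from 0) of 4 groups of proteasome genes in the 6 libraries of each group, in order of replicate number, with mean and SD in black. The core, the cap and the constitutive catalytic genes separate the groups, and the sum of Psmb8, Psmb9 and Psmb10 does not. The core genes, titled constitutive in the panel, include Psma8.

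In the 19S base, all 6 ATPase genes passed the test upwards, with a median log2 fold change of 0.71. Psmc6 changed most, from a median of 110.3 CPM (99.7 to 117) to 266 CPM (208 to 374) (log2 fold change 1.37, SE 0.12, edgeR adjusted p = 3.02e-07). Psmc2 was at a median of 80.8 CPM (71.9 to 85.9) and 133 CPM (115 to 162) (log2 fold change 0.77, SE 0.08, edgeR adjusted p = 1.14e-06). Psmc3 (0.74), Psmc1 (0.68) and Psmc4 (0.66) were close to Psmc2. Psmc5 overlapped between groups, and its log2 fold change of 0.27 ± 0.11 (SE; edgeR adjusted p = 0.0370) lost the call in 15 of 22 alternatives, 7 of them with 1 library left out (adjusted p of 0.00665 to 0.458 over all alternatives of any tool). The proteins of this ring are present in equal number in the complex, and the log2 fold changes of their messages ranged from 0.27 to 1.37.

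Among the other base genes, 2 of 3 rose. Psmd1, the scaffold that holds ubiquitin receptors, was at a median of 182 CPM (155 to 188) in BCR::ABL1− and 291 CPM (241 to 355) in BCR::ABL1+ (log2 fold change 0.75, SE 0.09, edgeR adjusted p = 3.68e-06). Psmd4, a ubiquitin receptor, was at a median of 81.5 CPM (73.2 to 86.9) and 97.1 CPM (80.6 to 118), with overlap (log2 fold change 0.30, SE 0.08, edgeR adjusted p = 0.00561). Psmd2, the other large scaffold, was at a median of 227 CPM (196 to 236) and 201 CPM (165 to 271), and its log2 fold change was −0.07 ± 0.11 (SE; edgeR adjusted p = 0.618).

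In the lid 6 of 8 genes were higher and 2 lower, where 30.6% of all tested genes rose and 29.0% fell. Psmd14, the deubiquitinase that cuts the chain from the substrate, had the largest log2 fold change of all members, from a median of 103 CPM (87.8 to 112) to 285 CPM (225 to 375), with a log2 fold change of 1.53 ± 0.11 (SE; edgeR adjusted p = 9.26e-08). Psmd13 went from a median of 78.5 CPM (72.9 to 83.96) to 169.7 CPM (138 to 192) (log2 fold change 1.10, SE 0.08, edgeR adjusted p = 1.15e-07), and the groups were apart for both genes. With the length and GC offsets described below, Psmd14 had a log2 fold change of 1.08 and Psma3, at 1.27, the largest. Psmd6 (1.00), Psmd12 (0.73), Psmd7 (0.70) and Psmd8 (0.68) rose as well. Psmd3 was at a median of 121 CPM (106 to 127) on TET and at 97.4 CPM (81.7 to 109) after its withdrawal, with overlap and a log2 fold change of −0.30 ± 0.07 (SE; edgeR adjusted p = 0.00204). Psmd11 was at a median of 138 CPM (124 to 142) and 119 CPM (109 to 123), without overlap, a log2 fold change of −0.21 ± 0.05 (SE; edgeR adjusted p = 0.00408).

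Of the 6 genes of the alternative caps and the inhibitor, 1 was higher, 2 were lower and 3 did not pass the test. These counts are near the shares of all tested genes (30.6% higher, 29.0% lower). Psme2, which forms the interferon-inducible 11S activator with Psme1, rose from a median of 91.1 CPM (76.8 to 106) to 160.5 CPM (119 to 225) (log2 fold change 0.86, SE 0.13, edgeR adjusted p = 5.19e-05). Psme1 had a median of 204 CPM (177 to 221) and 218 CPM (186 to 281), and its log2 fold change of 0.13 ± 0.10 (SE; edgeR adjusted p = 0.280) did not pass the test. The partners of 1 complex therefore differed in their calls, although the difference between them was not tested. Psme3, the nuclear activator PA28γ, fell from a median of 192 CPM (163 to 197) to 158 CPM (139.6 to 173), with overlap and a log2 fold change of −0.23 ± 0.07 (SE; edgeR adjusted p = 0.00746). Psme4, the activator PA200, fell from a median of 147 CPM (142 to 155) to 115 CPM (98.01 to 155), with overlap and a log2 fold change of −0.30 ± 0.09 (SE; edgeR adjusted p = 0.00912). Psmf1, the inhibitor PI31, had a log2 fold change of −0.08 ± 0.06 (SE; edgeR adjusted p = 0.258), and Psme2b, a near copy of Psme2 whose reads may be shared with it, of −0.06 ± 0.12 (SE; edgeR adjusted p = 0.694).

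The assembly factors rose in 6 of 7 cases, with a median log2 fold change of 0.87. Psmg3 went from a median of 11.7 CPM (10.9 to 13.8) to 22.8 CPM (18.98 to 30.3) (log2 fold change 0.98, SE 0.12, edgeR adjusted p = 5.64e-06) and Psmg4 from a median of 14.4 CPM (12.6 to 17.2) to 28.1 CPM (19.3 to 38.6) (log2 fold change 0.97, SE 0.15, edgeR adjusted p = 6.01e-05), the pair that starts the α ring. Psmg1 (0.87) and Psmg2 (0.27) encode the other core chaperone pair. Of the chaperones of the base, Psmd10 (0.87) and Psmd9 (0.59) rose, while Psmd5 had a log2 fold change of −0.07 ± 0.06 (SE; edgeR adjusted p = 0.293). Exons of other genes cover 25.5% of Psmd9. Psmc3ip, which is no proteasome gene, was at a median of 15.5 CPM (14.4 to 17.4) and 29.97 CPM (27.5 to 37.1) (log2 fold change 1.00, SE 0.10, edgeR adjusted p = 9.01e-07).

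Within each group a few libraries were the extremes for most members. BCR::ABL1− replicate 2 had the lowest level of its group for 43 of 49 members (87.8%), where it was lowest for 27.3% of all tested genes, and BCR::ABL1− replicate 3 the highest for 34 (69.4%, against 19.8%). Among BCR::ABL1+ libraries, replicate 6 was highest for 31 members (63.3%, against 19.4%), replicate 5 lowest for 22 (44.9%, against 14.8%) and replicate 2 lowest for 19 (38.8%, against 27.4%). By the members' share of raw counts, which involves no scaling factor, the lowest and highest BCR::ABL1− libraries were again replicates 2 (0.407%) and 3 (0.464%). The highest BCR::ABL1+ library was again replicate 6 (0.810%), and the lowest was replicate 2 (0.636%), followed by replicate 5 (0.659%). The coefficient of variation of the tested members had a median of 7.97% among BCR::ABL1− libraries and of 15.4% among BCR::ABL1+ libraries, against 10.1% and 21.1% over all tested genes.

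Transcript length moved with the change over all genes and over the members. Of 4 equal bins of tested genes by length, the shortest, at most 1416 bases, had a median log2 fold change of 0.48 with 43.3% higher, and it held 24 members, 20 of them higher. The longest bin had a median of −0.29 with 16.8% higher, and it held 2 members, of which 1, Psme4, fell. With offsets for each library's trend with length and GC content (96.6% of tested genes had a value), 35 members were higher and 4 lower, with a median log2 fold change of 0.59 over the members and 0.04 over all genes. Changes of called members that this moved by more than 1.5 times were those of Psma1 (to 0.47), Psma4 (0.46), Psmb2 (0.43), Psmb7 (0.50), Psmd6 (0.66), Psmd10 (0.38) and Psmd12 (0.41), which kept their call, and of Psmc5 (0.10), Psmd3 (−0.06) and Psme4 (−0.15), which lost it. Psmg2 turned to −0.17 (edgeR adjusted p = 0.0317), and Psme2b became lower (−0.42, adjusted p = 0.0149).

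Proteasome genes that carry other symbols also changed in both directions. Of 10 that could be matched by symbol, 5 rose and 1 fell, where 30.6% of all tested genes rose and 29.0% fell. With length and GC offsets 5 were again higher and 1 lower, but not the same genes. Sem1 (0.76, and 0.17 with offsets) and Uchl5 (0.70, and 0.24) lost their call. Adrm1 (0.08, and 0.24) and Ube3c (0.05, and 0.24) gained one. The largest rises were those of Pomp, the maturation factor of the core, from a median of 80.9 CPM (74.3 to 91.8) to 141 CPM (115 to 177) (log2 fold change 0.78, SE 0.10, edgeR adjusted p = 1.69e-05), and Usp14, a deubiquitinase of the cap, from a median of 115 CPM (103 to 120.1) to 192 CPM (179 to 209) (log2 fold change 0.76, SE 0.06, edgeR adjusted p = 1.06e-07). Akirin2, which takes the proteasome into the nucleus, fell (−0.37, and −0.69 with length and GC offsets). Of 4 ubiquitin and E1 genes, 1 rose and 1, Uba1, fell (−0.29, but 0.02 with length and GC offsets, which did not pass the test). The call of Uba1 was also lost in 7 of the 12 fits that left out 1 library. Rps27a, which encodes a fusion of ubiquitin and a ribosomal protein, had a median of 589 CPM (509.5 to 612) in BCR::ABL1− and 1194 CPM (937 to 1909.5) in BCR::ABL1+, without overlap (log2 fold change 1.21, SE 0.15, edgeR adjusted p = 7.79e-06).

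Of 10 genes known to regulate proteasome transcription, 0 rose and 7 fell in edgeR's test (median log2 fold change −0.37). Over all tested genes 30.6% rose and 29.0% fell. At an unadjusted p under 0.05, 0 were higher, and DESeq2 and limma voom called 0 higher and 7 lower as well. With length and GC offsets 4 were lower and 0 higher, and the median was −0.10. Mafk, a small MAF partner of NRF1, was at a median of 49.04 CPM (46.7 to 52.99) in BCR::ABL1− and 33.4 CPM (26.8 to 35.7) in BCR::ABL1+ (log2 fold change −0.60, SE 0.07, edgeR adjusted p = 7.43e-06). Stat3 was at a median of 230.0 CPM (226 to 239.7) and 158 CPM (128 to 191) (log2 fold change −0.57, SE 0.09, edgeR adjusted p = 6.92e-05). Both were lower in 6 of 6 BCR::ABL1+ libraries than in any BCR::ABL1− library, and their log2 fold changes with the offsets were −0.25 and −0.20. Nfe2l1, which encodes NRF1, had a log2 fold change of −0.33 ± 0.12 (SE; edgeR adjusted p = 0.0221), which turned to 0.12 with the offsets (edgeR adjusted p = 0.319). Of the genes of its activation, the segregase Vcp fell in both fits (−0.47, and −0.33 with offsets), and the protease Ddi2 in the first (−0.41, against −0.02). Mafg, another small MAF gene, had −0.33 and, with offsets, 0.15, which did not pass the test. Keap1, which encodes a repressor of NRF2 and so acts against the drivers of this list, fell (−0.53), but had −0.06 with offsets. The values of Ngly1 (−0.07), Nfe2l2 (−0.02) and Maff (0.32) did not pass the test, and Ngly1 was lower with the offsets (−0.24, edgeR adjusted p = 0.00693). The messages do not measure the processing or activity of these proteins.

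Genes that act with the immunoproteasome in antigen presentation fell in 8 of 10 cases (median log2 fold change −0.62), led by Nlrc5, the transactivator of MHC class I genes (log2 fold change −1.06, SE 0.11, edgeR adjusted p = 1.18e-06), and Tap1 (log2 fold change −1.01, SE 0.10, edgeR adjusted p = 1.17e-06), while Calr and Pdia3, general chaperones of the endoplasmic reticulum, rose. Over all tested genes 30.6% rose and 29.0% fell. With length and GC offsets 6 of the 10 were lower, with Nlrc5 at −0.53 and Tap1 at −0.64. Of 12 interferon signal genes, 9 fell and 3 rose (median −0.65), with Stat2 (log2 fold change −1.22, SE 0.07, edgeR adjusted p = 1.71e-08) and Irf9 (log2 fold change −1.20, SE 0.09, edgeR adjusted p = 1.35e-07), the partners of the ISGF3 factor, changing most. The rises were those of Ifngr1 (log2 fold change 1.15) and Ifngr2 (0.30), both without overlap, and of Socs1 (0.53), with overlap. With the offsets 7 were lower and 3 higher.

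**Figure D5:**
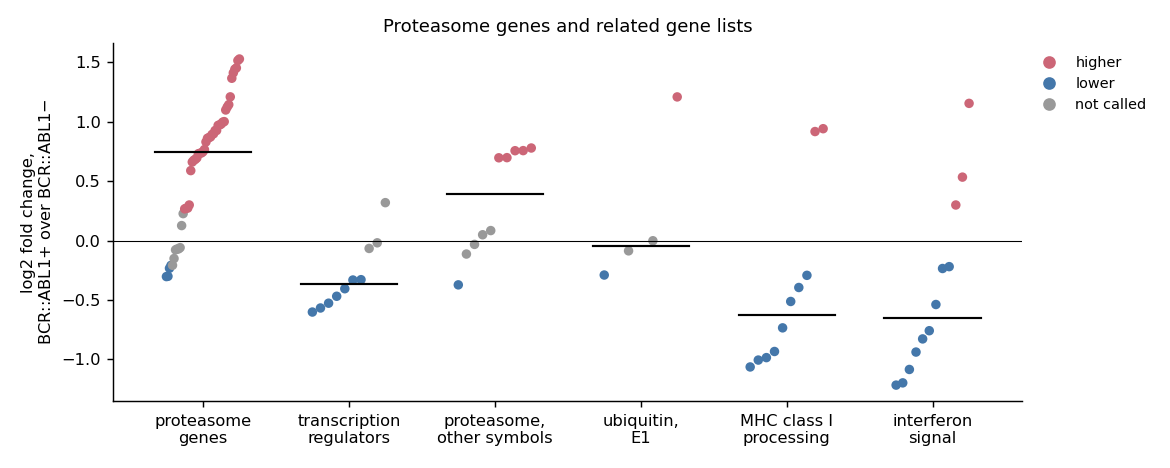
Log2 fold change (y axis) of the 49 tested members and of the genes of 5 related lists, each list in rising order, coloured by the edgeR call, with the list's median as black line. The members have a median of 0.75, the regulators of proteasome transcription of −0.37 (−0.10 with length and GC offsets), and the MHC class I and interferon lists of −0.62 and −0.65.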

How the data were processed

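The authors deposited raw counts per mouse Ensembl gene for each of the 12 libraries, without normalization. Libraries had been made with the Kapa RNA HyperPrep kit from sorted cells. The submitters' processing notes list FastQC 0.11.9, fastp 0.23.2, STAR 2.7.10a, featureCounts 2.0.1, DESeq2 1.36.0 and the mouse build GRCm39, whereas the study's methods describe Trim Galore!, HISAT2 and a human build, so the steps behind the counts are uncertain. The annotation release, the strand setting and the handling of reads with several matches are not given in the sources used here, and overlapping genes may share counts. Gene symbols and transcript lengths came from GENCODE M21, matched by Ensembl identifier (52073 of 56748), and promoter windows from RefSeq (GRCm38.p6); no coordinates were taken from the count files.

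Here the counts were tested with edgeR 4.0.16 in R 4.3.3 (filterByExpr, TMM factors, quasi-likelihood test of CML 2wk against CTRL, all 12 libraries, Benjamini-Hochberg adjustment over 18438 genes, threshold 0.05). Levels are CPM with TMM factors; levels per kilobase use 1 principal transcript per gene. Ratios used raw counts and a two-sided exact permutation test (scipy 1.17.1, Python 3.11.15), adjusted over 3 ratios. Alternatives used DESeq2 1.42.0, limma 3.58.1, other factors, no filter, a replicate block, a threshold of 0.01 and the omission of libraries; length and GC offsets were chosen after seeing the data. On simulated data the edgeR step gave the right call for 58 of 62 genes changed by 1 on the log2 scale (CML 2wk against CTRL, 18438 genes). Several calls here had smaller changes, such as those of Psmb8 (0.27) and Psmd11 (−0.21), which this figure does not cover. The simulation gave both groups the same spread. In the data edgeR's biological coefficient of variation was 10.8% in CTRL and 32.6% in CML 2wk, so the simulation cannot show how the step performs at unequal spread. No pair of libraries agreed within sampling noise (lowest chi-square per degree of freedom 4.07).

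The members and all lists were chosen with earlier results of these data known. Every member may be named; values are given in full for the catalytic genes and, in each role, for the pair of called members with the largest change, and for related lists the same pair. Nfe2l1, Ddi2, Vcp, Ngly1, Nfe2l2, Maff, Mafg, Keap1, Akirin2, Uba1, Calr and Pdia3 were named in addition, with their values seen. So were Sem1, Uchl5, Adrm1, Ube3c, Ifngr1, Ifngr2 and Socs1. BCR::ABL1 itself was not analysed here, nor was Paaf1. Some genes of the ubiquitin list are not reported here. A count of 0 in a library allows up to 3 counts (counting error only). The pattern GAAANNGAA was chosen after the matches of a longer form of it had been seen.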

Additional observations from a re-analysis of the deposited data

Results flagged for a closer look

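Of 116 sets of 6 values examined (each tested member, ratio and sum in each group), 1 had a library far from the others, where chance alone gives about 5.8. In BCR::ABL1− replicate 5 the log2 ratio of Psmb9 to Psmb6 was 0.22, while the nearest of the other BCR::ABL1− libraries was at 0.45, a gap of 0.970 of the whole range of the group. The value still lay above all BCR::ABL1+ libraries, of which the highest was at −0.55. Without this library the difference between groups was −1.15, against −1.11 with it.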

How the results depend on the processing

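Under 22 alternatives, 35 to 38 members were higher and 4 to 5 lower, and 37 of the 41 called members were called each time. Among these 37, Psmg2 was called in the opposite direction with length and GC offsets. Leaving out 1 library at a time gave 35 to 38 higher and 4 to 5 lower members, 5172 to 6070 higher and 5013 to 5937 lower genes among all tested, and log2 ratio differences of −0.91 to −0.80 (Psmb8 to Psmb5), −1.15 to −1.07 (Psmb9 to Psmb6) and −0.65 to −0.59 (Psmb10 to Psmb7). Calls of Psmb8, Psmc5, Psmd3 and Psme4 were lost at least once, and Psmb9, Psmb10 and Psme2b gained one. Psmb8 lost its call in 10 alternatives, and Psmb10 gained one with upper-quartile factors (log2 fold change 0.30, edgeR adjusted p = 0.0228). With length and GC offsets Psmg2 turned from 0.27 to −0.17 and was called lower (edgeR adjusted p = 0.0317). The cause was not tested. Of 1078 member values, 1044 kept their call. Among these were 7 values without a call, in 5 members, whose direction changed.

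The same replicate numbers do not pair the libraries: deviations from the group means correlated at −0.125 to 0.0679 between libraries of 1 number. With the replicate block 36 members were higher and 4 lower, and the ratio differences were −0.85, −1.11 and −0.62, each with p = 0.03125 by exact sign-flip permutation, the smallest 6 pairs allow; 1 of 6 libraries correlated best with its own number. The depth allowed 49 of 50 members to be tested.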
